A study of Homo sapiens with 8 samples.

Results

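The 10 genes described here encode ligands, receptors and SMAD proteins of the transforming growth factor beta (TGF-beta) family: TGFB1, TGFB2, INHBA, BMP4, TGFBR2, TGFBR3, SMAD2, SMAD3, SMAD4 and SMAD7. They were chosen by gene symbol, and all 10 were found among the 50006 gene entries of the deposited count tables. The RNA came from BEAS-2B, an immortalised human bronchial epithelial line labelled wild type and grown in serum-free LHC-9 medium. The 4 groups of 2 libraries were PBS controls (Mock), fibrinogen (FBG), FCP (FCPs derived from Der m 1, an abbreviation not spelled out in the labels) and aC (the αC domain of fibrinogen), the last 3 given at 4 ng/µl for 4 h. Der m 1 is a cysteine protease allergen made by a species of house dust mite. The line and its medium were common to all groups, and the labels name no other agent.

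TGF-beta family ligands are secreted dimers that bring together type I and type II receptor kinases. The activated type I receptor phosphorylates receptor SMADs, which join SMAD4 and enter the nucleus to bind DNA with other factors. TGF-beta and activin ligands act through SMAD2 and SMAD3 and bone morphogenetic proteins (BMPs) through other receptor SMADs, while SMAD7 is an induced inhibitor of the receptors. TGF-beta is produced in latent form, restrains epithelial proliferation and is a known inducer of matrix genes in the airway.

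Total counts ran from 15137196 to 22258791 per library, with both FCP and both aC libraries deeper than the Mock and FBG libraries. Between the 2 libraries of each group the variance over genes was 1.27 to 1.34 times that of counting alone. The labels call them biological replicates without naming separate cultures, so p-values measure the spread of these libraries alone, and that spread may be technical. The FCP and aC libraries stood apart from the Mock and FBG libraries in markers of cell identity. The 6 basal epithelial markers summed to 358 to 360.4 CPM (counts scaled to library size by the TMM method) in Mock, 370.0 to 378 with FBG, 3029 to 3073 with FCP and 3134 to 3211 with aC, and 6 of 6 were called higher in FCP and in aC than in Mock, where 37.3% and 38% of all tested genes were called higher and 36.1% and 36.7% lower. Among them KRT5, a keratin of basal cells, had a mean of 2.03 CPM in Mock, 7.27 with FBG, 1579 with FCP and 1601 with aC. The 8 fibroblast markers summed to 2388 to 2421 CPM in Mock, 1226 to 1234 with FBG, 230.2 to 231 with FCP and 241 to 242 with aC. COL1A1 made up most of each sum, with means of 2153, 1088, 173 and 184 CPM. KRT17 made up most of the basal sum in Mock (348) and FBG (351). Of the 6 fibroblast markers tested, 5 were called lower in FCP and 6 in aC, and COL3A1 was at 0 in all libraries. In FBG against Mock 3 basal markers were called higher and KRT14 lower, from 2.26 to 0.269 CPM. There 4 fibroblast markers were called lower and PDGFRA higher, from 0.566 to 1.75 CPM, beside 24.2% of all tested genes called higher and 26.3% lower. Ciliated and secretory airway markers (2.31 to 7.41 CPM), endothelial markers (0.673 to 3.97) and blood and immune markers (11.8 to 32.7) summed to low levels in every library, with PPBP, HBB and CD3E at 0 throughout. Of these lists, 3 of 3 tested endothelial markers were called higher in FCP and in aC than in Mock, and the 1 tested blood and immune marker, CD68, was called lower in all 3 groups. The 1 tested ciliated and secretory marker was called higher in FBG and lower in FCP. The labels do not say whether the FCP and aC cultures differed from the others in anything but treatment, so in every value of FCP or aC against Mock or FBG a response to treatment cannot be told apart from another difference between these libraries. The part of the markers in the results below was not tested. In these bulk samples fewer cells of a type and less RNA per cell cannot be told apart.

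INHBA, BMP4 and TGFB2 had the widest ranges of the 10 genes over the libraries, and the 4 ligand genes did not move together. INHBA rose from 0.433 CPM in Mock to 2.12 with FBG, 24.5 with FCP and 58.3 with aC. BMP4 and TGFB2 were both highest in FBG and lowest in FCP and aC, while TGFB1 was highest in Mock and lower in each of the other groups. SMAD3 was the SMAD gene with the widest range, from 53.8 CPM in FBG to 181 with aC. SMAD7, SMAD2 and SMAD4 lay in narrow ranges, of 0.41, 0.26 and 0.19 in log2 CPM. The plot of levels by library shows these patterns.

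**Figure D1:**
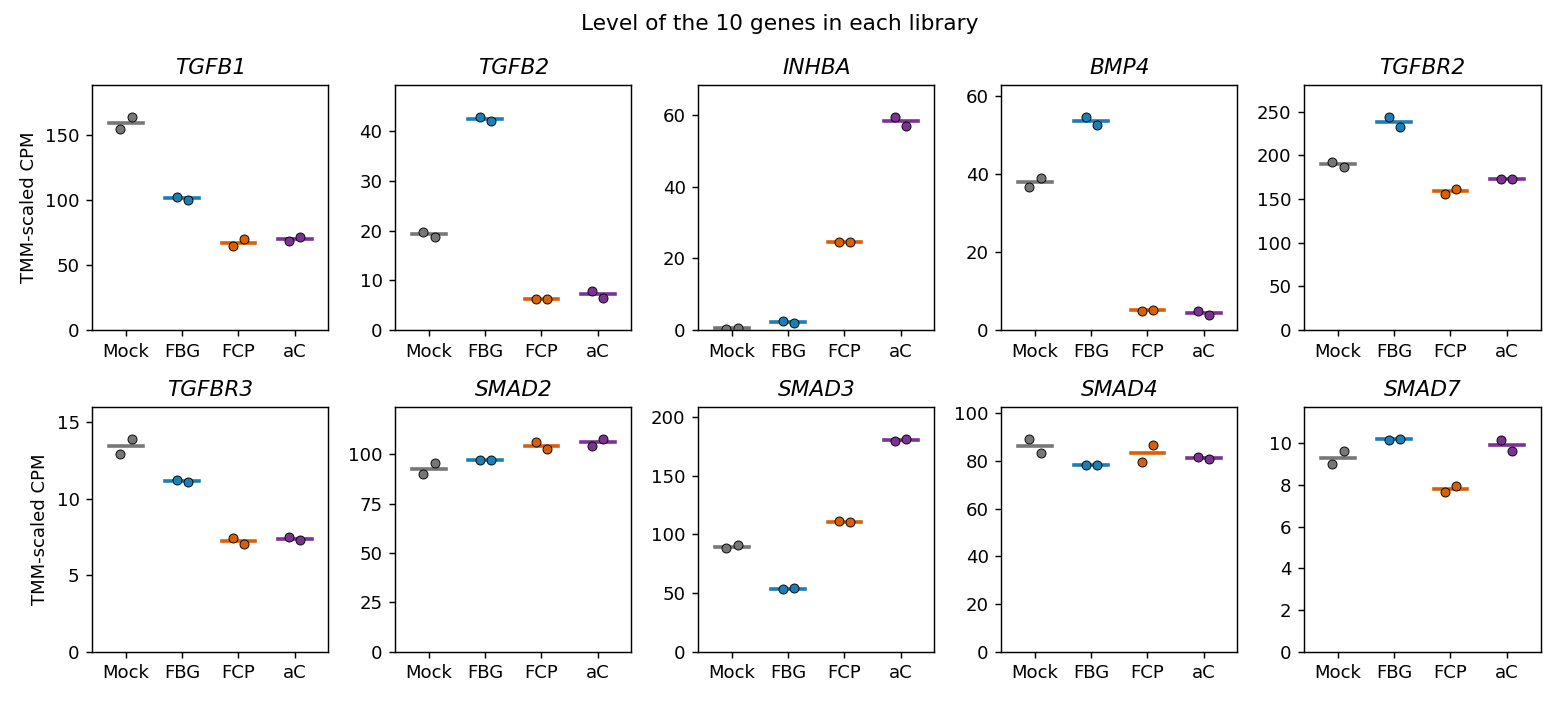
Level of each of the 10 genes in TMM-scaled CPM (y axis, from 0, a scale of its own in each panel) in the 4 groups; points are the 2 libraries of a group and bars their mean. INHBA climbs from 0.433 in Mock to 58.3 in aC, TGFB2 and BMP4 peak in FBG, and SMAD4 lies between 78.3 and 89.4 in all libraries.

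The promoters of TGFB1, TGFB2 and INHBA are shown because these ligand genes moved in different ways over the groups and each had a single start in the RefSeq promoter table (GRCh38.p14), which held all 10 genes, 5 of them with 1 start. Each line is the 250 bases before the annotated start, on the gene's own strand, 5′ to 3′. Capitals mark every match, on either strand, to the TATA box letters TATAAA, the SMAD box letters CAGAC, which SMAD3 and SMAD4 are known to bind, and the GC box letters GGGCGG, a site of Sp1-type factors.
TGFB1, chr19:41353923-41354172, minus strand: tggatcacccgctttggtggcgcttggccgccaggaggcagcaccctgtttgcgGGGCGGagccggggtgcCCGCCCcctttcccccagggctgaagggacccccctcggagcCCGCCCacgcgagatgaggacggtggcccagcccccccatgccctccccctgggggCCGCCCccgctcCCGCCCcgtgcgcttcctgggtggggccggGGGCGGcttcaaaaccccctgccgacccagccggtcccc
TGFB2, chr1:218345086-218345335, plus strand: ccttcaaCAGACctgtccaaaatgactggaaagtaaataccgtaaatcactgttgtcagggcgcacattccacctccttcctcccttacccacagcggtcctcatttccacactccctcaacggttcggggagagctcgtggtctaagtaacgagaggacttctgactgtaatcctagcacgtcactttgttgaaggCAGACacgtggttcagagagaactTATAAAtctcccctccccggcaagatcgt
INHBA, chr7:41703091-41703340, minus strand: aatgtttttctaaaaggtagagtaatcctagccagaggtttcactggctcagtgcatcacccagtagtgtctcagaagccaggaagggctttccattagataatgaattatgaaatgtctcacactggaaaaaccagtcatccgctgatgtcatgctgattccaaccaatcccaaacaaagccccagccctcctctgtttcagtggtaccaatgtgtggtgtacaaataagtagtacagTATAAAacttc
The TGFB1 window was 76.8% G and C and held 6 GC boxes, with no TATA box and no SMAD box. The TGFB2 window was 50.4% G and C and held a TATA box beginning 29 bases before the start and 2 SMAD boxes, the nearer beginning 53 bases before it. The INHBA window was 42.8% G and C, with a TATA box beginning 11 bases before the start and neither of the other motifs, and it lay inside the deposited span of the gene without touching an annotated exon. Over the 35116 windows of the same length in the table, TATAAA was found in 10.7%, CAGAC in 38% and GGGCGG in 42.6%. Searched in the same way, the AP-1 letters TGANTCA (6.57% of all windows) were found before 1 of the 5 starts of SMAD3 and in no other window of the 10 genes, and the cyclic AMP response element letters TGACGTCA (1.65%) in none. CAGAC was also found before 2 of the 5 starts of SMAD3, 2 of the 3 of SMAD7 and 2 of the 3 of BMP4. Matches to different motifs shared no base in the printed windows, and a match describes the letters only.

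INHBA, which encodes the beta A subunit that forms activin A (chromosome 7, 41685114 to 41705406), was near the detection floor in Mock, with 3 and 10 counts in the 2 libraries. Its scaled levels were 0.2 and 0.666 CPM in Mock, 2.42 and 1.82 with FBG, 24.4 and 24.6 with FCP and 59.5 and 57.1 with aC. The 4 groups did not overlap, and each step in the order Mock, FBG, FCP and aC was called. Fold changes are log2 values from edgeR's quasi-likelihood test with Benjamini-Hochberg adjustment over all genes, given with the larger of the fitted and the counting standard error (n = 2 against 2). INHBA rose by 2.28 ± 0.44 in FBG against Mock (adjusted p = 0.00172), by 5.80 ± 0.40 in FCP against Mock (adjusted p = 4.95e-07) and by 7.05 ± 0.40 in aC against Mock (adjusted p = 1.13e-07). All 3 sizes rested on the sparse Mock libraries. Without Mock replicate 1 they were 1.66 in FBG, 5.18 in FCP and 6.43 in aC, and without Mock replicate 2 they were 3.36, 6.89 and 8.13. Between the 2 high groups aC exceeded FCP by 1.25 ± 0.15 (adjusted p = 0.0024). That last call ended without FCP replicate 1 (1.24, adjusted p = 0.0566) and without FCP replicate 2 (1.25, adjusted p = 0.0508), where the size of the difference hardly moved.

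BMP4, a bone morphogenetic protein gene (chromosome 14, 53949736 to 53956891), went from 36.7 and 39.0 CPM in Mock to 54.7 and 52.5 with FBG, 4.89 and 5.23 with FCP and 4.94 and 3.72 with aC. The FBG libraries were the highest, and the FCP and aC libraries overlapped. BMP4 rose by 0.50 ± 0.09 in FBG against Mock (adjusted p = 6.24e-05) and fell by 2.90 ± 0.10 in FCP (adjusted p = 1.34e-15) and by 3.13 ± 0.11 in aC (adjusted p = 4.86e-16). Its exons shared 19.8% of their length with an uncharacterised gene on the opposite strand (88 counts over all libraries), and reads in a shared stretch cannot be assigned without strand.

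TGFB2, the TGF-beta 2 gene (chromosome 1, 218345336 to 218444619), had 19.7 and 18.8 CPM in Mock, 42.9 and 42.0 with FBG, 6.24 and 6.28 with FCP and 7.81 and 6.46 with aC. Like BMP4 it was highest in both FBG libraries and low in all 4 FCP and aC libraries. It rose by 1.14 ± 0.09 in FBG against Mock (adjusted p = 2.15e-10) and fell by 1.62 ± 0.10 in FCP (adjusted p = 5.03e-13) and by 1.43 ± 0.10 in aC (adjusted p = 3.63e-12). With trends of GC content and length removed, the rise in FBG was 0.75 (adjusted p = 2.54e-09). Of its exon length, 25.2% is shared with the overlapping genes TGFB2-AS1 and TGFB2-OT1, which had 6 counts in all over the 8 libraries.

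TGFB1, the TGF-beta 1 gene (chromosome 19, 41330323 to 41353922), had 155 and 164 CPM in Mock, 103 and 99.96 with FBG, 64.6 and 70.0 with FCP and 68.2 and 71.9 with aC. Both Mock libraries were above all others, and FCP and aC overlapped below FBG. TGFB1 fell by 0.65 ± 0.04 in FBG against Mock (adjusted p = 1.44e-10), by 1.24 ± 0.04 in FCP (adjusted p = 2.15e-15) and by 1.19 ± 0.04 in aC (adjusted p = 3.87e-15). With GC content and length trends removed, the fall in FBG was -0.42 (adjusted p = 1.44e-09).

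Per base of exon length, TGFB1 held the largest share of the 4 ligand genes in every library, and the second place changed hands. TGFB1 made up 75.5% and 75.7% of their summed counts per base in Mock, 55.5% and 55.8% with FBG, 77.0% and 77.9% with FCP and 65.6% and 68.8% with aC. BMP4 came second in Mock (20.02% and 20.1%) and in FBG (33.1% and 32.8%). INHBA came second in FCP (13.0% and 12.3%) and in aC (25.6% and 24.4%), against 0.0436% and 0.137% in Mock. These shares are descriptions of each library. Within a library the ratio of TGFB2 to TGFB1 counts was 0.127 and 0.114 in Mock, 0.418 and 0.42 with FBG, 0.0966 and 0.0897 with FCP and 0.115 and 0.0898 with aC, so it stood apart in the FBG libraries.

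**Figure D2:**
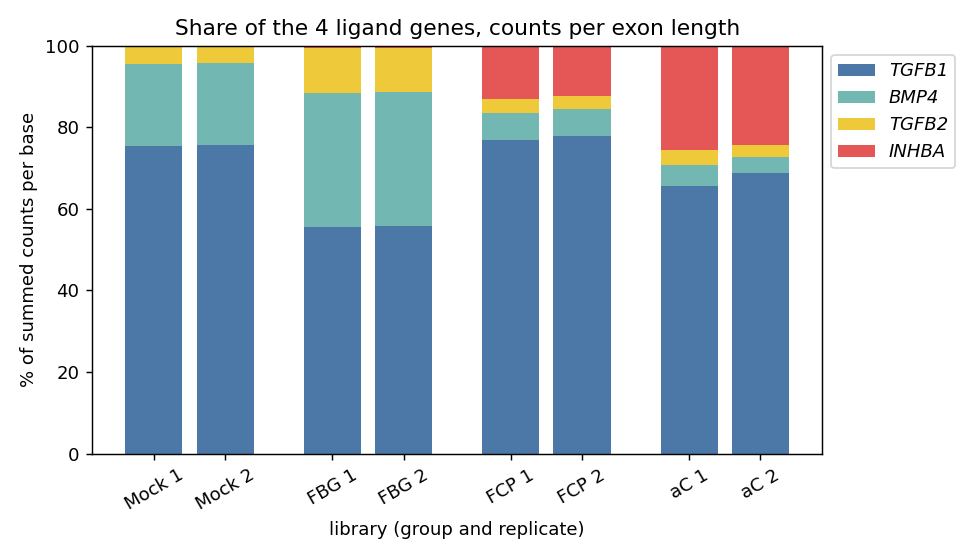
Share of TGFB1, BMP4, TGFB2 and INHBA in their summed counts per base of exon length (y axis, percent) in each of the 8 libraries (x axis). INHBA is barely visible in Mock and FBG, takes 12.3% to 13.0% in the FCP libraries and 24.4% to 25.6% in the aC libraries.

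The 2 receptor genes moved by smaller amounts. TGFBR2, the type II receptor kinase that binds TGF-beta (chromosome 3, 30606356 to 30694142), had 193 and 187 CPM in Mock, 244 and 232 with FBG, 156 and 161 with FCP and 172.7 and 173 with aC. No 2 groups overlapped, and the order FBG, Mock, aC and FCP was called at each step. It rose by 0.33 ± 0.03 in FBG against Mock (adjusted p = 1.09e-09) and fell by 0.26 ± 0.03 in FCP (adjusted p = 2.34e-08) and by 0.13 ± 0.03 in aC (adjusted p = 0.000193). Scaling by library size alone ended the call in FCP (-0.04, adjusted p = 0.254) and turned the value in aC to 0.10 (adjusted p = 0.00295), and removal of GC content and length trends gave 0.18 in FBG, -0.61 in FCP and -0.48 in aC.

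TGFBR3, the co-receptor betaglycan, which presents TGF-beta 2 to the receptor kinases (chromosome 1, 91680343 to 91906002), was the less abundant of the pair per length, at 1.80 CPM per kb of exon in Mock against 14.6 for TGFBR2. Its levels were 12.9 and 13.9 CPM in Mock, 11.2 and 11.1 with FBG, 7.42 and 7.06 with FCP and 7.52 and 7.26 with aC. FCP and aC overlapped, and both lay below FBG and Mock. TGFBR3 fell by 0.89 ± 0.12 in FCP against Mock (adjusted p = 4.27e-07) and by 0.86 ± 0.12 in aC (adjusted p = 6.77e-07). In FBG against Mock it was at -0.26 ± 0.12 (adjusted p = 0.0639) and was not called, but passed with RLE scaling (-0.29, adjusted p = 0.0397) and with GC content and length trends removed (-0.38, adjusted p = 0.0052). The partner type I receptor gene TGFBR1, on chromosome 9, went the other way in FCP and aC, from 23.5 CPM in Mock (SD 0.159, n = 2) to 32.9 with FBG (SD 0.423), 44.7 with FCP (SD 0.04) and 46.2 with aC (SD 2.84). It rose by 0.93 ± 0.06 in FCP (adjusted p = 3.45e-12) and by 0.98 ± 0.06 in aC (adjusted p = 1.31e-12), where the median of the 705 tested chromosome 9 genes was 0.581 and 0.589, against 0.0575 and 0.0607 for all genes.

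SMAD3 and SMAD2, the receptor SMADs of TGF-beta and activin signals, differed in how far they moved. SMAD3 (chromosome 15, 67065602 to 67195169) had 88.2 and 90.9 CPM in Mock, 53.3 and 54.3 with FBG, 111 and 110.3 with FCP and 179.8 and 182 with aC. The pairs lay tightly together, and no 2 groups overlapped. SMAD3 fell by 0.74 ± 0.05 in FBG against Mock (adjusted p = 7.8e-14) and rose by 0.31 ± 0.03 in FCP (adjusted p = 1.12e-08) and by 1.01 ± 0.03 in aC (adjusted p = 2.45e-18). It was also higher in aC than in FCP, by 0.71 ± 0.03 (adjusted p = 9.52e-14), and this difference stayed between 0.70 and 0.71 when each library was left out in turn. The rise in FCP was 0.53 with library size alone and 0.48 with the GC content trend alone removed.

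SMAD2 (chromosome 18, 47808957 to 47930872) had 90.1 and 95.6 CPM in Mock, 97.2 and 97.0 with FBG, 106 and 102.5 with FCP and 104 and 108 with aC. Both FBG libraries were above both Mock libraries, and FCP and aC overlapped at the top. It was called higher in FCP against Mock (0.17 ± 0.04, adjusted p = 0.000227) and in aC against Mock (0.19 ± 0.04, adjusted p = 4.68e-05), and was not called in FBG (0.06 ± 0.04, adjusted p = 0.161). These directions depended on the treatment of GC content. With GC content and length trends removed SMAD2 was lower in FBG (-0.25, adjusted p = 6.96e-07), in FCP (-0.34, adjusted p = 7.65e-11) and in aC (-0.32, adjusted p = 4.16e-10), and with the GC trend alone removed it was at -0.18, -0.13 and -0.09. The deposited exon length of SMAD2 is 45626 bases, so its level per length in Mock was 2.04 CPM per kb, against 11.4 for SMAD3, 9.51 for SMAD4 and 2.52 for SMAD7. That length covers all annotated exons of the gene, so these values do not settle how abundant its RNA was against the others. Summed counts in Mock were 2788 for SMAD2 and 2689 for SMAD3. Scaling by library size alone gave larger rises, 0.39 in FCP and 0.42 in aC. The ratio of SMAD3 to SMAD2 counts within a library was 0.979 and 0.951 in Mock, 0.548 and 0.56 with FBG, 1.05 and 1.08 with FCP and 1.72 and 1.68 with aC.

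SMAD4, the common partner of the receptor SMADs (chromosome 18, 51030213 to 51085042), had 89.4 and 83.4 CPM in Mock, 78.5 and 78.3 with FBG, 79.8 and 86.6 with FCP and 81.9 and 81.0 with aC. It had the narrowest range of the 10 genes, 0.19 in log2 CPM over the 8 libraries. SMAD4 was called lower in FBG against Mock (-0.14 ± 0.04, adjusted p = 0.0109). That call ended without Mock replicate 1 (-0.09), without FBG replicate 1 (-0.14), without FBG replicate 2 (-0.14) and with library size alone (-0.03). In FCP and aC against Mock it was not called, at -0.05 ± 0.04 (95% interval -0.142 to 0.0349) and -0.08 ± 0.04 (-0.172 to 0.00421). With GC content and length trends removed all 3 were called, at -0.51 in FBG, -0.64 in FCP and -0.67 in aC, and with library size alone the values in FCP and aC turned to 0.17 and 0.15. SMAD4 in FCP and aC therefore kept no single direction over the scalings.

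SMAD7, the inhibitory SMAD (chromosome 18, 48919853 to 48950965), was sparse, with 135 to 241 counts per library. Its levels were 8.998 and 9.65 CPM in Mock, 10.17 and 10.23 with FBG, 7.68 and 7.98 with FCP and 10.18 and 9.63 with aC. The FCP libraries were the lowest, below all 6 others. It was not called against Mock in FBG (0.13 ± 0.12, adjusted p = 0.397), FCP (-0.25 ± 0.12, adjusted p = 0.0636) or aC (0.09 ± 0.12, adjusted p = 0.511). It was lower in FCP than in FBG (-0.38 ± 0.12, adjusted p = 0.0076), a call that ended with the DESeq2 Wald test (adjusted p = 0.123) and without FCP replicate 1 (adjusted p = 0.0506). With GC content and length trends removed SMAD7 was called higher than Mock in FBG (0.33, adjusted p = 0.0209) and in aC (0.25, adjusted p = 0.048). Set against SMAD3, the ratio of SMAD7 to SMAD3 counts was 0.102 and 0.106 in Mock, 0.191 and 0.188 with FBG, 0.0691 and 0.0723 with FCP and 0.0566 and 0.053 with aC. SMAD2, SMAD4 and SMAD7 all lie on chromosome 18, whose 236 tested genes had a median of 0.14 in FBG, 0.431 in FCP and 0.463 in aC against Mock.

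**Figure D3:**
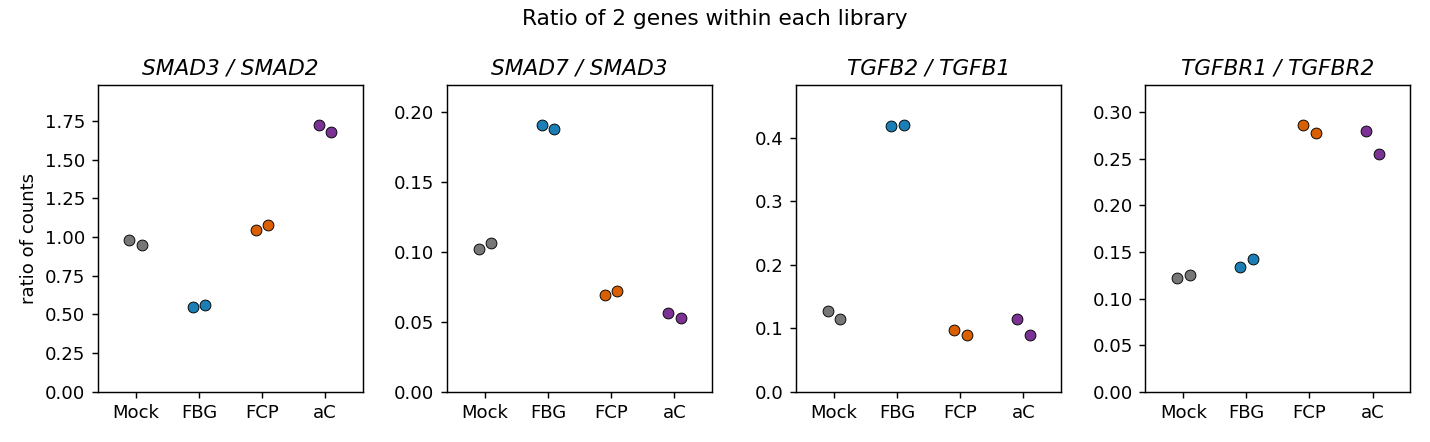
Ratio of the counts of 2 genes within each library (y axis, from 0, a scale of its own in each panel) for the 4 groups; each point is 1 library. SMAD3 to SMAD2 runs from 0.548 with FBG to 1.72 with aC, TGFB2 to TGFB1 is highest in FBG, and TGFBR1 to TGFBR2 is between 0.122 and 0.143 in Mock and FBG and between 0.255 and 0.286 with FCP and aC.

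In FBG against Mock, which set intact fibrinogen against buffer, TGFB2, INHBA, BMP4 and TGFBR2 rose and TGFB1, SMAD3 and SMAD4 fell. Thus 7 of the 10 genes were called, where 50.4% of all 16307 tested genes were called, 24.2% higher and 26.3% lower. The median of the 10 was 0.0972, against 0.0155 for all genes. In FCP against Mock INHBA, SMAD3 and SMAD2 rose and TGFB1, TGFB2, BMP4, TGFBR2 and TGFBR3 fell. These 8 of 10 stand beside 73.4% of all genes (37.3% higher and 36.1% lower), with a median of -0.254 against 0.0575. In aC against Mock the same 3 genes rose and the same 5 fell, beside 74.7% of all genes (38% higher and 36.7% lower), with a median of -0.108 against 0.0607. All 3 comparisons share the Mock libraries. Read against these shares, the number of the 10 genes called is not particular to them.

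The 4 FCP and aC libraries were compared directly, and 3 of the 10 genes were called. INHBA (1.25 ± 0.15), SMAD3 (0.71 ± 0.03) and TGFBR2 (0.13 ± 0.03, adjusted p = 0.00328) were higher in aC, and none was lower. These 3 of 10 stand beside 9.01% of all genes (4.57% higher and 4.45% lower), and the count fell to 1 without FCP replicate 1, when TGFBR2 (0.10, adjusted p = 0.094) and INHBA were lost. SMAD7 was at 0.34 ± 0.12 with groups that did not overlap (adjusted p = 0.0796). For the 6 others the 95% intervals of aC against FCP were -0.0313 to 0.148 for TGFB1, -0.051 to 0.43 for TGFB2, -0.515 to 0.0662 for BMP4, -0.212 to 0.272 for TGFBR3, -0.0468 to 0.0958 for SMAD2 and -0.116 to 0.0551 for SMAD4.

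**Figure D4:**
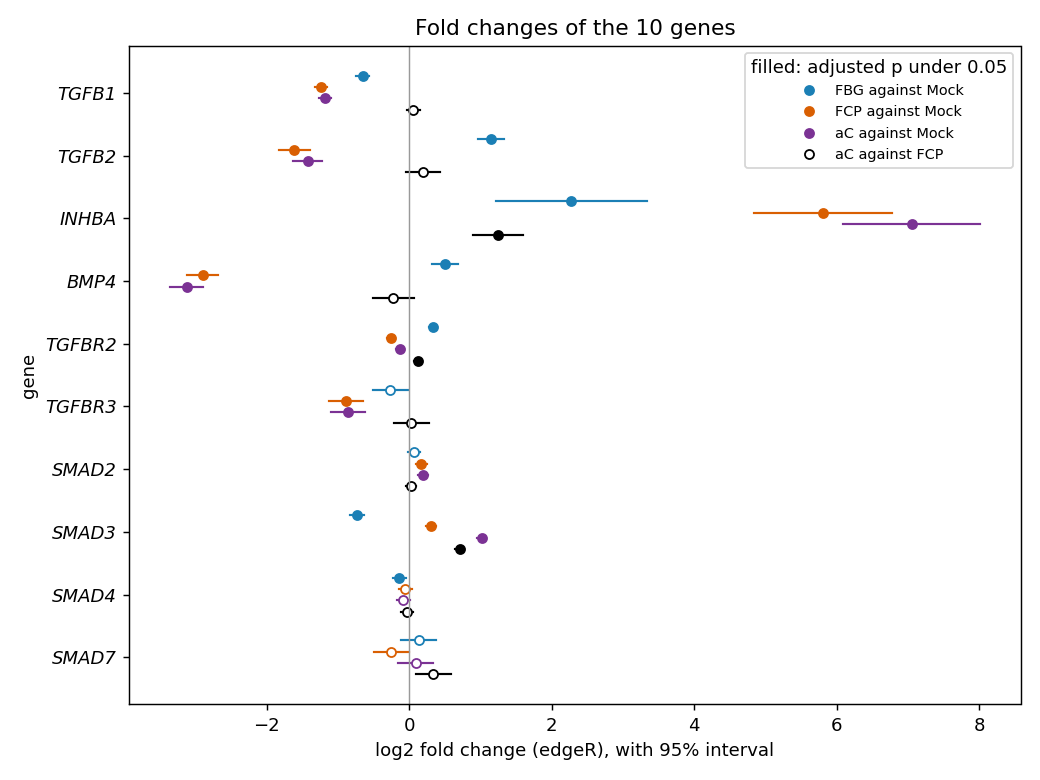
Log2 fold changes (x axis) of the 10 genes (y axis) in FBG, FCP and aC against Mock and in aC against FCP; lines are 95% intervals and filled points passed an adjusted p of 0.05. INHBA lies furthest to the right at 7.05 in aC, BMP4 furthest to the left at -3.13 in aC, and TGFB2, BMP4 and TGFBR2 are above 0 in FBG and below 0 in FCP and aC.

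Against intact fibrinogen, FCP and aC differed from FBG in most of the genes. In FCP against FBG INHBA (3.53 ± 0.20), SMAD3 (1.04 ± 0.04) and SMAD2 (0.10 ± 0.04) were higher, and BMP4 (-3.40 ± 0.10), TGFB2 (-2.76 ± 0.09), TGFBR3 (-0.63 ± 0.12), TGFB1 (-0.59 ± 0.04), TGFBR2 (-0.59 ± 0.03) and SMAD7 were lower. That is 9 of 10, beside 66.8% of all genes (32.6% higher and 34.2% lower). In aC against FBG INHBA (4.78 ± 0.20), SMAD3 (1.75 ± 0.04) and SMAD2 (0.13 ± 0.04) were higher and BMP4 (-3.63 ± 0.11), TGFB2 (-2.57 ± 0.09), TGFBR3 (-0.60 ± 0.12), TGFB1 (-0.53 ± 0.04) and TGFBR2 (-0.46 ± 0.03) lower. These 8 of 10 stand beside 68.3% of all genes (33.8% higher and 34.5% lower). The SMAD2 call in FCP against FBG ended without FBG replicate 1 (0.10), without FBG replicate 2 (0.10) and without FCP replicate 1 (0.08), and with the GC trend alone removed (0.05), and both SMAD2 values turned with GC content and length trends removed (-0.09 in FCP and -0.06 in aC).

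The split between higher and lower moved with the scaling. Against Mock, the median of all genes with library size alone was 0.128 for FBG (0.0155 with TMM), 0.278 for FCP (0.0575) and 0.291 for aC (0.0607). Of all called genes, 47.9% were higher in FBG against Mock, and 63.3% with library size alone, and the same shares were 50.8% and 63.1% in FCP and 50.9% and 63.4% in aC. With that scaling 5 of the 10 genes were called higher and 2 lower in FBG, 4 higher and 4 lower in FCP, and 6 higher and 4 lower in aC. The directions of TGFB1, TGFB2, INHBA, BMP4, TGFBR3 and SMAD3 in the 3 comparisons with Mock held under every alternative tried.

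The genes whose pattern over the 8 libraries was nearest were found for the 3 genes of widest range, by the root mean square difference of centred log2 CPM over 16297 other tested genes. SLC8A1, a sodium-calcium exchanger gene, was nearest to BMP4, with a difference of 0.0979 and means of 30.9 CPM in Mock, 43.1 with FBG, 4.43 with FCP and 3.84 with aC, followed by DHRS2 (0.179). ITGB3, the integrin beta 3 subunit gene, was nearest to TGFB2 (0.15), with means of 26.6 CPM in Mock, 73.8 with FBG, 10.1 with FCP and 11.8 with aC. TTC29 (0.168) followed, with 0.266 CPM in Mock, 0.64 with FBG and 0 with FCP and aC. No gene lay as near to INHBA, for which MAP7 (0.522) and SERPINB4 (0.576, with 0.0666 CPM in Mock) came first. At such low levels log2 CPM depends on the prior count, and so do the differences of TTC29 and SERPINB4. INHBA itself had 3 and 10 counts in the Mock libraries, so its differences from all genes carry the same limit.

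Other ligand genes of the family changed in both directions. Counts and medians of the lists that follow stand beside the shares of all genes called and the medians of all genes given above, and a few genes, such as SKIL, LTBP2 and SMAD6, belong to 2 lists. Of 20 listed, 11 were tested, and 3 rose and 6 fell in FCP against Mock, with a median of -0.559, 3 rose and 6 fell in aC (median -0.38), and 4 rose and 2 fell in FBG (median 0.184). GDF6, a growth and differentiation factor gene, fell by 3.29 ± 0.11 in FCP (adjusted p = 2.71e-19) and by 3.14 ± 0.10 in aC. INHBB, the beta B subunit of activin B, fell by 3.99 ± 0.39 in FCP and by 4.47 ± 0.45 in aC, opposite to INHBA. BMP2, another BMP ligand, had 2 counts in Mock, 136 with FCP and 206 with aC, ratios of 44.5 (95% counting interval 12.1 to 371) and 65.3 (17.9 to 543), opposite to BMP4. BMP1, listed here by its name, encodes a protease that processes procollagens and BMP antagonists, and is 1 of the 6 fallen in FCP and in aC and 1 of the 4 risen in FBG. It fell by 0.26 ± 0.03 in FCP and 0.15 ± 0.03 in aC and rose by 0.36 ± 0.03 in FBG. GDF11 fell by 0.20 ± 0.06 in FCP, 0.38 ± 0.06 in aC and 0.41 ± 0.07 in FBG.

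Receptor and SMAD regulator genes also changed in both directions. Of 12 tested receptors and co-receptors 5 rose and 2 fell in FCP (median 0.359), 6 rose and 2 fell in aC (median 0.393) and 4 rose and 1 fell in FBG (median -0.000541). BMPR2, the type II BMP receptor, rose by 0.71 ± 0.04 in FCP, 0.69 ± 0.04 in aC and 0.54 ± 0.04 in FBG. ACVR2B, an activin type II receptor, rose by 1.16 ± 0.10 in FCP and 1.27 ± 0.10 in aC, and BMPR1B by 2.2 ± 0.23 and 1.83 ± 0.23. ENG, the co-receptor endoglin, fell by 0.58 ± 0.04 in FBG. Of 14 SMADs and SMAD regulators 8 rose and 4 fell in FCP (median 0.197), 9 rose and 3 fell in aC (median 0.188) and 3 rose and 7 fell in FBG (median -0.107). Among them SKIL, a SMAD corepressor, rose by 1.17 ± 0.06 in FCP and 1.32 ± 0.06 in aC, and TRIM33 by 0.86 ± 0.04 and 0.89 ± 0.04 and, in FBG, by 0.52 ± 0.05. SMURF2, a ubiquitin ligase that acts on receptors and SMADs, rose by 0.81 ± 0.03 in FCP and 0.64 ± 0.04 in aC. NEDD4L, a related ligase, rose by 0.37 ± 0.03 in FCP and 0.61 ± 0.03 in aC and fell by 0.38 ± 0.04 in FBG. The corepressor SKI fell by 0.51 ± 0.02 in FCP, 0.41 ± 0.02 in aC and 0.11 ± 0.03 in FBG.

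Among 18 tested genes of latency, activation and extracellular antagonism, 4 rose and 9 fell in FCP (median -0.415), 6 rose and 8 fell in aC (median -0.239) and 4 rose and 4 fell in FBG (median -0.17). LTBP2, a latent TGF-beta binding protein family gene, rose by 0.75 ± 0.02 in FCP, 0.76 ± 0.02 in aC and 0.52 ± 0.02 in FBG. ITGAV, the integrin subunit shared by receptors that activate latent TGF-beta, rose by 1.04 ± 0.04 in FCP and 1.26 ± 0.04 in aC. The follistatin-like gene FSTL1 fell by 1.74 ± 0.02 in FCP, 1.76 ± 0.02 in aC and 0.58 ± 0.02 in FBG, and DCN, the proteoglycan decorin, which binds TGF-beta and is one of the fibroblast markers above, fell by 5.28 ± 0.42 in FCP and 5.44 ± 0.44 in aC.

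TGF-beta target genes split by member. Of 16 tested 10 rose and 5 fell in FCP (median 0.735), 10 rose and 4 fell in aC (median 0.743) and 8 rose and 7 fell in FBG (median 0.00985). PMEPA1, a feedback inhibitor, had a mean of 14.3 CPM in Mock, 26.5 with FBG, 185 with FCP and 184.7 with aC, and rose by 3.70 ± 0.07 with FCP and by 3.70 ± 0.07 with aC. TGFBI, a matrix protein gene, rose by 1.37 ± 0.02 in FCP and 1.28 ± 0.02 in aC and fell by 0.30 ± 0.03 in FBG. COL1A1, the type I collagen chain and another fibroblast marker, fell by 3.64 ± 0.02 in FCP, 3.55 ± 0.02 in aC and 0.99 ± 0.01 in FBG, and the smooth muscle protein gene TAGLN fell by 3.24 ± 0.06 in aC. CCN2, connective tissue growth factor, fell by 2.83 ± 0.01 in FCP and 2.77 ± 0.01 in aC and rose by 0.37 ± 0.01 in FBG.

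BMP target genes were sparse. Of 10 listed, 6 were tested, with 1 risen and 4 fallen in FCP (median -1.9), 1 risen and 3 fallen in aC (median -1.59) and 1 fallen in FBG (median -0.00262). ID2, an inhibitor of differentiation gene, fell by 4.31 ± 0.47 in FCP and 4.51 ± 0.50 in aC, ATOH8 by 3.15 ± 0.33 and 3.13 ± 0.32, and the inhibitory SMAD gene SMAD6 by 3.61 ± 0.41 and 2.72 ± 0.33. SMAD6 also fell by 0.93 ± 0.30 in FBG. ID1 went the other way, with a mean of 10.96 CPM in Mock (SD 0.62, n = 2), 11.98 with FBG (SD 0.764), 20.7 with FCP (SD 1.56) and 29.1 with aC (SD 1.46), a rise of 0.92 ± 0.09 with FCP and 1.41 ± 0.09 with aC, and it was higher in aC than in FCP by 0.49 ± 0.08 (adjusted p = 0.000394).

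**Figure D5:**
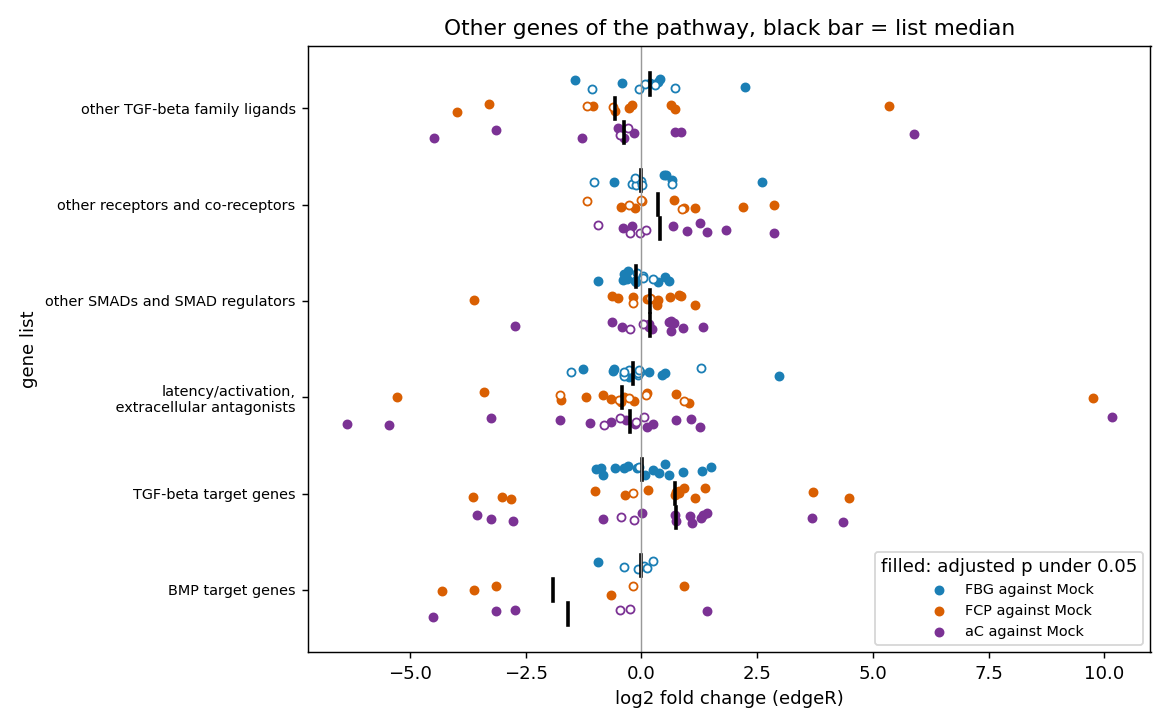
Log2 fold changes (x axis) of the tested genes of 6 other lists of the pathway (y axis) in FBG, FCP and aC against Mock; each point is a gene, filled where the adjusted p was under 0.05, and black bars are list medians. The BMP target medians lie at -1.9 in FCP and -1.59 in aC and the TGF-beta target medians at 0.735 and 0.743; points of genes with 0 to 3 counts in a group, such as BMP2, are fitted values that depend on the prior count.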

How the data were processed

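The authors' deposited files hold raw counts of read pairs per gene for 8 libraries, made with featureCounts 1.6.0 in paired-end mode over exons, per the file headers, whose command sets neither strand nor multi-mapping. The submitters' processing notes name featureCounts 1.6.2, Trimmomatic 0.39, HISAT2 2.2.1, SAMtools 1.9 and GRCh38.p14. Counts were tested with edgeR 4.0.16 in R 4.3.3 (TMM scaling, filterByExpr by group, robust quasi-likelihood, all libraries in 1 fit with 4 residual degrees of freedom, 16307 genes), and called under an adjusted p of 0.05. CPM values are TMM-scaled; log2 CPM used a prior count of 2. The script was tested on simulated data. GC content came from GENCODE transcripts by symbol, for 24439 entries. Alternatives were RLE or no scaling, no filter, DESeq2 1.42.0, only the groups compared, a replicate block, removal of GC content and length trends, each library left out and, added after seeing the data, GC content alone. Named list genes are the called ones with the smallest p-values, 4 per list in FCP and in aC and 2 in FBG against Mock, with TGFBR1 and CCN2; another gene of the rule is not reported here. The genes and lists were chosen with earlier results of these data known. Intervals cover counting error only where so named, and 3 counts equal 0.135 to 0.198 CPM of the total counts, before TMM scaling.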

Additional observations from a re-analysis of the deposited data

How the results depend on the processing

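Of 1020 values of the 10 genes under 17 alternatives, 954 kept their direction and their side of the threshold and 28 changed sign. Of those 28, 18 were called in the new direction. Among values that kept their sign, 14 lost a call and 24 gained one. In aC against FCP the number of all genes called was 1470, 830 with the DESeq2 Wald test and 853 to 1616 with a library left out, and the number of the 10 genes called was 3, and 1 to 3 with a library left out. No other total of called genes moved by over 1.5 times. By direction, all genes called higher in FBG against Mock went from 3941 to 2601 with DESeq2, and of the 10 genes those called lower there went from 3 to 5 with GC content removed (with or without length) and those called higher in aC against Mock from 3 to 6 with library size alone. The replicate block lost or turned no call of the 10 genes and left 8128 of 8226 calls in FBG against Mock by number. Replicate 1 deviations correlated between groups at -0.0749 to 0.0652. As the libraries of a group differed by little more than counting error, these values cannot show whether equal replicate numbers shared a culture or day. The labels do not say.

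With GC content and length trends removed, with and without the replicate block, SMAD2 turned to -0.2534 (FBG), -0.3414 (FCP) and -0.3161 (aC) against Mock, and against FBG to -0.08807 (-0.08806 with the block) for FCP and -0.0627 (-0.06271) for aC. SMAD4 turned to -0.1338 and, with the block, -0.1339 in FCP against FBG and to -0.16 in aC against FBG. With the GC trend alone removed SMAD2 was at -0.1827, -0.1322 and -0.09051 in FBG, FCP and aC against Mock and SMAD4 at -0.004561 in aC against FBG. With library size alone SMAD4 was at 0.1676 and 0.1466 in FCP and aC against Mock, TGFBR2 at 0.0991 in aC against Mock and SMAD7 at 0.07522 in aC against FBG. With a library left out, values near 0 changed sign. SMAD4 in FCP against Mock ran from -0.1134 to 0.007403 (without FCP replicate 1). In aC against FCP without FCP replicate 2 the sign changed for TGFBR3 (range -0.006465 to 0.06461), SMAD2 (-0.002829 to 0.04942, and -0.0009082 without aC replicate 2) and SMAD4 (-0.08908 to 0.02733). SMAD7 in aC against FBG ran from -0.08189 to 0.0002361 (without aC replicate 2). The cause was not tested. Depth limits INHBA in Mock, with 13 counts in all.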
